A study of Mus musculus with 9 samples.

Results

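C/D box small nucleolar RNAs were described through the 47 array probe sets whose single annotated symbol starts with Snord, out of 33793 probe sets in all. Each stood for a different Snord gene, and all 47 were found in the reference gene table. Of these, 43 had a mean log2 signal over the 9 hearts above 5.21, the median over all probe sets, and entered the tests. The 4 dim ones, Snord19, Snord85, Snord37 and Snord91a, averaged between 4.56 and 5.05 and are given as values without a test. The hearts came from 2 month old mice of 3 genotypes with 3 hearts each: Col4a3-/-OPN-/- mice, which lack a chain of the collagen IV of basement membranes and also osteopontin, Col4a3-/- mice, which lack the collagen chain alone, and wild type mice. Mice without Col4a3 are used as a model of Alport syndrome, and the Col4a3 deletion is carried by both mutant groups. Each heart was snap frozen, its total RNA was measured on 1 array, and the authors deposited log2 signals from robust multi-array averaging (RMA). The labels give no sex, littermate or batch for a heart, so the main fit took none of them into account. A p-value here sets a difference between genotype means against the spread of these hearts within genotypes.

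C/D box small nucleolar RNAs are short RNAs of the nucleolus that carry a C box and a D box near their ends. Each is bound by fibrillarin, Nop56, Nop58 and Snu13, and most of them pair with ribosomal RNA and place a methyl group on the ribose of a chosen nucleotide. A few act in the cutting or other modification of the ribosomal RNA precursor, and others have no known target. In mammals most are cut out of introns of host genes, many of which encode ribosomal proteins or are non-coding RNAs named Gas5 and Snhg, so their level depends on the transcription of the host, on splicing and on the stability of the mature particle. On an array of this kind, signal from the mature RNA and signal from the unspliced intron cannot be told apart.

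The 47 Snord genes lay on 16 chromosomes, with 8 of them on chromosome 11, and measured 48 to 221 nucleotides with a median of 68. All but Snord13, Snord89 and Snord118 lay within the span of at least 1 longer gene in the reference table, which holds no strand. The span belonged to a ribosomal protein gene for 12 members, to Gas5 or an Snhg gene for 6, to a translation factor gene for 2 and to another gene for 24. The sequences of the Snord RNAs themselves were not used here. The starts of all their non-coding hosts with a promoter window are shown, because transcripts of snoRNA hosts often begin with a C followed by a run of pyrimidines, a start they share with the messages of ribosomal proteins. Each line gives 20 bases before and 20 bases from the annotated start in RefSeq, build GRCm38.p6, in the direction of the gene, and capitals mark the unbroken run of C and T that begins at the start, which Snhg16 lacks.
Gas5, host of Snord47, chr1:161035146-161035185, plus strand: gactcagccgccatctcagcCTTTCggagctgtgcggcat
1110038B12Rik, host of Snord52, chr17:34952449-34952488, minus strand: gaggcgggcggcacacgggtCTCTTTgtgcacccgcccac
Gm36220, host of Snord104, chr11:106500895-106500934, plus strand: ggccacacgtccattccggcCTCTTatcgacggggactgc
2410006H16Rik, host of Snord49a, Snord49b and Snord65, chr11:62602857-62602896, plus strand: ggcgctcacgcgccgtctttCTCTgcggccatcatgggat
Snhg12, host of Snord99, chr4:132308658-132308697, plus strand: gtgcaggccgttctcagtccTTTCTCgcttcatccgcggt
Snhg1, host of Snord22, chr19:8723467-8723506, plus strand: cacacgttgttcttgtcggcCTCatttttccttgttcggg
Snhg18, host of Snord123, chr15:32244643-32244682, minus strand: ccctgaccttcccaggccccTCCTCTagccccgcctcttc
Gm17344, whose span holds Snord71 together with Ap1g1, chr8:109868511-109868550, minus strand: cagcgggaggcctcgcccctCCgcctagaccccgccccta
Snhg16, host of Snord1b, chr11:116671640-116671679, plus strand: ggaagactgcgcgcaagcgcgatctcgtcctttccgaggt

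Read on the gene's own strand, a C at the annotated start followed by at least 4 bases that are each C or T stood in 3 of the 30 hosts with a promoter window (10%), namely 1110038B12Rik, Gas5 and Gm36220. The same pattern stood in 813 of 27025 genes (3.01%). The ribosomal protein hosts with a promoter window, Rpl13a, Rpl37, Rpl4, Rps3 and Rps3a1, lacked the pattern at their annotated starts. The match depends on the exact base that the annotation calls the start, and it is a description of the letters only.

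Of the targeted genes, Col4a3 was dim in this tissue, at 5.17, 4.87 and 5.26 in Col4a3-/-OPN-/- hearts, 5.27, 4.96 and 5.19 in Col4a3-/- hearts, and 5.07, 5.31 and 5.52 in wild type hearts, so it does not check the labels. Osteopontin had no probe set with a single symbol and was not analysed here. All 9 arrays carried heart muscle markers at a like level, with a mean log2 signal of 11.6 to 11.9 over 7 genes, and correlated with each other at a Pearson's r of 0.936 to 0.986. Hearts within the mutant groups differed in sex and in markers of neighbouring tissue. Xist had a signal of 8.56 in replicate 2 of the Col4a3-/-OPN-/- hearts and of 7.59 and 8.50 in replicates 1 and 3 of the Col4a3-/- hearts, against 4.52 to 4.77 in the other 6 hearts, where the Y-linked Eif2s3y read 7.998 to 8.39. The summed signal of 5 airway and lung markers on the log2 scale was 7.14 to 10.03 in Col4a3-/-OPN-/- hearts, 12.3 in Col4a3-/- replicate 2 against 7.21 and 7.22 in the other Col4a3-/- hearts, and 7.28 to 7.66 in wild type hearts. The airway gene Scgb1a1 was high in both Col4a3-/-OPN-/- hearts with Y-linked signal, at 9.81 in replicate 1 and 9.52 in replicate 3 against 4.93 in replicate 2, and at 5.09 to 6.10 in wild type hearts. The brown fat marker Ucp1 was at 8.24, 6.81 and 7.95 in Col4a3-/-OPN-/- hearts, 4.79, 11.1 and 5.03 in Col4a3-/- hearts, and 8.29, 9.20 and 8.65 in wild type hearts. Atrial markers were lowest in Col4a3-/- replicates 1 and 3, with a summed log2 signal over 5 genes of 12.8 and 12.99, against 13.7 in replicate 2, 13.6 to 13.8 in Col4a3-/-OPN-/- hearts and 13.8 to 13.9 in wild type hearts. The mean log2 signal of 4 smooth muscle markers was 8.15 to 8.42 in Col4a3-/-OPN-/- hearts, 7.04 to 7.55 in Col4a3-/- hearts and 8.30 to 8.46 in wild type hearts. Col4a3-/- replicate 3 had a summed signal of 10.99 for 4 markers of endothelial activation, against 7.57 and 8.08 in the other Col4a3-/- hearts. Y-linked signal was entered as a covariate in an alternative fit, and the part of the other markers in the Snord values was not tested.

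No Snord probe set passed an adjusted p of 0.05 in any comparison. In the limma fit of all 13650 tested probe sets, the smallest adjusted p among the members was 0.144 in Col4a3-/-OPN-/- minus Col4a3-/- hearts, 0.345 in Col4a3-/- minus wild type hearts and 0.999 in Col4a3-/-OPN-/- minus wild type hearts. Of all tested probe sets, 0.044% were called in the first of these, which is 6 probe sets, and 0% in each of the others. The F test over the 3 genotypes called 0.0147% of all probe sets, which is 2, and no member, with a smallest adjusted p of 0.309. The number of hearts limits the precision: the median standard error of a difference was 0.21 for the members and 0.15 for all tested probe sets on the log2 scale. What follows describes differences that did not pass the test, and every p-value called unadjusted comes from the same limma fit.

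The members moved together from heart to heart, and 2 hearts carried most of the low values. The median log2 signal of the 43 tested members was 8.04, 8.38 and 8.52 in Col4a3-/-OPN-/- hearts, 8.79, 8.25 and 8.67 in Col4a3-/- hearts, and 8.54, 8.69 and 8.56 in wild type hearts. The means of these medians were 8.31 ± 0.24 in Col4a3-/-OPN-/- hearts, 8.57 ± 0.28 in Col4a3-/- hearts and 8.59 ± 0.08 in wild type hearts (SD, n = 3 each), so Col4a3-/-OPN-/- hearts differed from the others by about the spread inside the mutant groups, and Col4a3-/- and wild type hearts by far less. Col4a3-/-OPN-/- replicate 1 was the lowest of the 9 hearts in 23 of the 43 members (53.5%), against 9.6% of all tested probe sets, and below all wild type hearts in 32 of them (74.4%), against 25.1% of all.

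Col4a3-/- replicate 2 was the lowest heart of its genotype in 41 of the 43 members (95.3%), against 28.1% of all tested probe sets, and lay below all wild type hearts in 27 (62.8%), against 33.1% of all. The 2 exceptions were Snord118, where this heart was the highest of the 9, and Snord88c. Col4a3-/- replicate 1 was the highest of the 9 hearts in 26 members (60.5%), against 14.3% of all tested probe sets, while the 9 for which replicate 3 was the highest (20.9%) were no more than the 21.3% of all. Col4a3-/- replicates 1 and 3 lay together above all wild type hearts in 17 members (39.5%), against 11% of all. The Col4a3-/- group therefore held hearts on both sides of the wild type ones: relative to each member's mean over the 9 hearts, the median deviation was 0.35, -0.23 and 0.28 in its replicates 1, 2 and 3. The same deviation was -0.50, -0.05 and 0.01 in the Col4a3-/-OPN-/- hearts, and 0.04, 0.21 and -0.07 in the wild type hearts.

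**Figure D1:**
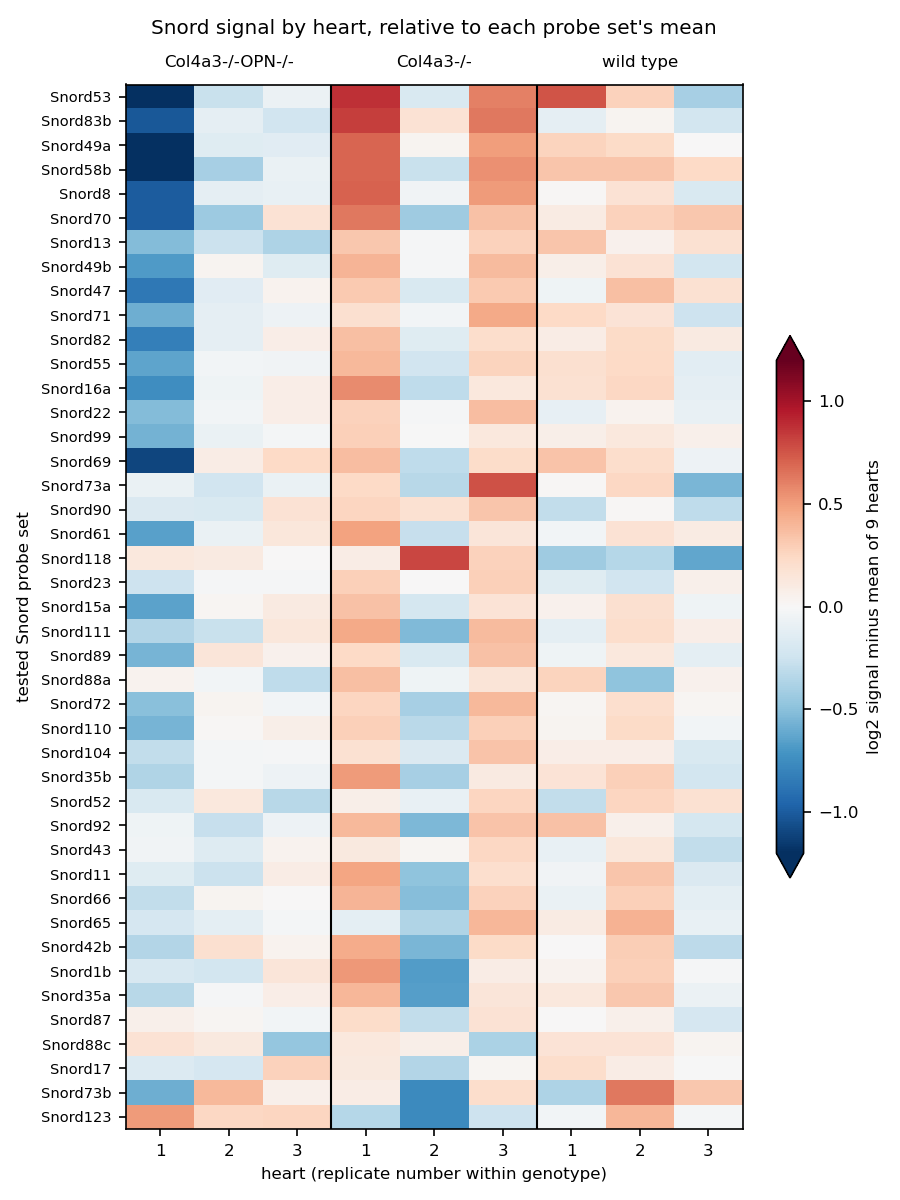
Log2 signal of the 43 tested Snord probe sets (rows) in each of the 9 hearts (columns, replicate number below), minus that probe set's mean over the 9 hearts; rows run by the Col4a3-/-OPN-/- minus Col4a3-/- difference, most negative at the top. The column of Col4a3-/-OPN-/- replicate 1 is the lowest of the 9 in 23 rows, and Col4a3-/- replicate 2 is the lowest of its genotype in 41 rows while replicate 1 is the highest of the 9 in 26.

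The spread inside a genotype was wider for the Snord probe sets than over all tested probe sets, which also held for the H/ACA box and Cajal body RNAs described below. The median SD over 3 hearts was 0.29 among members and 0.14 among all tested probe sets in Col4a3-/-OPN-/- hearts, 0.35 and 0.21 in Col4a3-/- hearts, and 0.18 and 0.12 in wild type hearts. Snord53 had the widest spread within genotypes, with a pooled SD of 0.66, followed by Snord73b at 0.51, Snord58b at 0.50 and Snord49a at 0.49. Mean signals ran between 5.32 for Snord52, just above the filter, and 12.1 for Snord99, while Snord19 lay just below the filter at 5.05. Signals of different probe sets depend on their probes, so these levels rank no RNA by abundance.

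Between Col4a3-/-OPN-/- and Col4a3-/- hearts, the members leaned to lower signal in the Col4a3-/-OPN-/- hearts. The difference was negative for 39 of the 43 members (90.7%), against 42.3% of all tested probe sets, and positive for 4 (9.3%), against 57.7%. Its median was -0.27 log2 over the members, against 0.04 over all. At an unadjusted p under 0.05, 11 members were lower (25.6%), against 5.03% of all tested probe sets, and 1 was higher (2.33%), against 8.58%. The 11 were Snord53, Snord83b, Snord49a, Snord58b, Snord8, Snord13, Snord49b, Snord71, Snord22, Snord99 and Snord90, and the higher one was Snord123. All 3 Col4a3-/-OPN-/- hearts lay below all 3 Col4a3-/- hearts in 8 members (18.6%), against 6.48% of all tested probe sets, and above them in Snord123 alone (2.33%), against 10.1%. The count of 11 rested on single hearts: it was 4 without Col4a3-/-OPN-/- replicate 1. Leaving out a Col4a3-/- heart gave 5 for replicate 1, 27 for replicate 2 and 6 for replicate 3. Without both low hearts it was 17, and the median difference was then -0.30.

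Snord118 and Snord13 act in the cutting or other modification of ribosomal RNA and are made from genes of their own. Snord13, known as U13, guides an acetylation of 18S ribosomal RNA, and it was the member that set the Col4a3-/-OPN-/- hearts most evenly apart. Its log2 signal was 7.85, 8.12 and 8.002 in Col4a3-/-OPN-/- hearts, 8.70, 8.36 and 8.66 in Col4a3-/- hearts, and 8.70, 8.43 and 8.56 in wild type hearts. Every Col4a3-/-OPN-/- heart lay below all 6 others, and the Col4a3-/- and wild type hearts shared 1 range. The difference was -0.58 ± 0.14 against Col4a3-/- hearts (SE, a fold of 0.667, unadjusted p = 0.00172, limma adjusted p = 0.161) and -0.57 ± 0.14 against wild type hearts (a fold of 0.671, unadjusted p = 0.00192, limma adjusted p = 0.999).

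Snord118, known as U8, is needed for the maturation of 5.8S and 28S ribosomal RNA and was higher in both mutant groups than in wild type, where most members had a negative difference in Col4a3-/-OPN-/- minus wild type hearts. Its log2 signal was 6.84, 6.81 and 6.72 in Col4a3-/-OPN-/- hearts, 6.80, 7.51 and 6.99 in Col4a3-/- hearts, and 6.28, 6.36 and 6.09 in wild type hearts. All 6 mutant hearts lay above all 3 wild type hearts, and the mutant groups overlapped. The difference was 0.86 ± 0.18 in Col4a3-/- minus wild type hearts (SE, a fold of 1.81, unadjusted p = 0.000568, limma adjusted p = 0.345), the smallest p of any member in that comparison, and 0.54 ± 0.18 in Col4a3-/-OPN-/- minus wild type hearts (a fold of 1.46, unadjusted p = 0.011, limma adjusted p = 0.999). Col4a3-/- replicate 2, the heart with the highest airway and fat markers, held its highest value.

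Among members held by protein-coding genes, the largest differences between the mutant groups were in Snord53, Snord83b, Snord58b and Snord8. Snord83b lies in Rpl3, the gene of a protein of the large ribosomal subunit, and was at 6.30, 7.20 and 7.09 in Col4a3-/-OPN-/- hearts, 8.14, 7.49 and 7.95 in Col4a3-/- hearts, and 7.20, 7.35 and 7.09 in wild type hearts. The Col4a3-/- hearts were all above the other 6. The difference was -0.997 ± 0.24 in Col4a3-/-OPN-/- minus Col4a3-/- hearts (SE, a fold of 0.501, unadjusted p = 0.00172, limma adjusted p = 0.161) and 0.65 ± 0.24 in Col4a3-/- minus wild type hearts (a fold of 1.56, unadjusted p = 0.0218, limma adjusted p = 0.517). Snord43, in the same host, differed by -0.18 and 0.21 in these comparisons.

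Snord58b, a methylation guide for 28S ribosomal RNA that lies in Rpl17, was at 7.10, 8.12 and 8.44 in Col4a3-/-OPN-/- hearts, 9.22, 8.25 and 9.07 in Col4a3-/- hearts, and 8.85, 8.85 and 8.76 in wild type hearts. All Col4a3-/-OPN-/- hearts were below the wild type hearts, by -0.93 ± 0.32 (SE, unadjusted p = 0.0151, limma adjusted p = 0.999), while Col4a3-/- replicate 2 reached into their range. Snord53, in the ribosome assembly gene Wdr43, was at 6.20, 7.52 and 7.72 in Col4a3-/-OPN-/- hearts, 8.66, 7.60 and 8.38 in Col4a3-/- hearts, and 8.54, 8.06 and 7.39 in wild type hearts. It had the most negative difference of all members against Col4a3-/- hearts, -1.07 ± 0.42 (SE, unadjusted p = 0.0268, limma adjusted p = 0.315), but its groups overlapped in every comparison. Snord92, held by the same gene, differed by -0.19 ± 0.23 there (SE, unadjusted p = 0.42).

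Snord8 lies in the span of Chd8, a chromatin remodeller gene, and also in that of Gm26590. It was at 8.18, 9.07 and 9.09 in Col4a3-/-OPN-/- hearts, 9.89, 9.14 and 9.69 in Col4a3-/- hearts, and 9.20, 9.35 and 8.997 in wild type hearts. The mutant groups did not overlap, by a margin set by Col4a3-/- replicate 2, and differed by -0.79 ± 0.26 (SE, unadjusted p = 0.0104, limma adjusted p = 0.262). Snord90 in Rc3h2, the gene of an RNA-binding ubiquitin ligase, was at 5.32, 5.32 and 5.67 in Col4a3-/-OPN-/- hearts, 5.76, 5.68 and 5.83 in Col4a3-/- hearts, and 5.20, 5.51 and 5.19 in wild type hearts. Its Col4a3-/- hearts were above all others, by 0.45 ± 0.13 over wild type hearts (SE, unadjusted p = 0.00461, limma adjusted p = 0.45), on a signal close to the filter. The margin between the mutant groups was very narrow, with Col4a3-/- replicate 2 at 5.677 and Col4a3-/-OPN-/- replicate 3 at 5.672. Snord23, in Nop53, a ribosome assembly gene, differed by 0.30 ± 0.14 in Col4a3-/- minus wild type hearts (SE, unadjusted p = 0.0526) and was among the members whose mutant groups did not overlap, with a difference of -0.29 between them.

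Members held by non-coding genes included Snord49a, with the Col4a3-/-OPN-/- hearts lowest, and Snord123, with the Col4a3-/- hearts lowest. Snord49a, a methylation guide for 28S ribosomal RNA in 2410006H16Rik, was at 8.03, 9.34 and 9.35 in Col4a3-/-OPN-/- hearts, 10.19, 9.52 and 9.99 in Col4a3-/- hearts, and 9.76, 9.72 and 9.49 in wild type hearts. The Col4a3-/-OPN-/- hearts were below all others, by -0.99 ± 0.31 against Col4a3-/- hearts (SE, a fold of 0.503, unadjusted p = 0.00902, limma adjusted p = 0.252) and by -0.75 ± 0.31 against wild type hearts (a fold of 0.596, unadjusted p = 0.0359, limma adjusted p = 0.999). From the same host, Snord49b differed by -0.52 ± 0.19 (SE, unadjusted p = 0.0206) and Snord65 by -0.08 ± 0.20 (SE, unadjusted p = 0.677) between the mutant groups, so 1 host held both a member among the most negative and a member near 0.

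Snord99, in Snhg12, was at 11.57, 12.06 and 12.11 in Col4a3-/-OPN-/- hearts, 12.42, 12.13 and 12.26 in Col4a3-/- hearts, and 12.21, 12.26 and 12.20 in wild type hearts. The Col4a3-/-OPN-/- hearts were again the lowest 3, and the difference was -0.36 ± 0.13 against Col4a3-/- hearts (SE, unadjusted p = 0.0221, limma adjusted p = 0.304) and -0.31 ± 0.13 against wild type hearts (SE, unadjusted p = 0.0403). Snord22, in Snhg1, is known from frog oocytes as a factor in 18S ribosomal RNA maturation, and was at 10.79, 11.28 and 11.40 in Col4a3-/-OPN-/- hearts, 11.60, 11.30 and 11.68 in Col4a3-/- hearts, and 11.21, 11.36 and 11.22 in wild type hearts. Its mutant groups overlapped, at a difference of -0.37 ± 0.16 (SE, unadjusted p = 0.0379). Snord47, in Gas5, differed by -0.47 ± 0.23 (SE, unadjusted p = 0.0632) and was lowest in Col4a3-/-OPN-/- replicate 1, at 9.39.

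Snord123, in Snhg18, was lowest in the Col4a3-/- hearts, the group with the highest signal for Snord83b, Snord8 and Snord90. It was at 6.56, 6.30 and 6.31 in Col4a3-/-OPN-/- hearts, 5.71, 5.28 and 5.80 in Col4a3-/- hearts, and 6.02, 6.45 and 6.03 in wild type hearts. The other groups overlapped, and no Col4a3-/- heart reached them. The difference was 0.79 ± 0.17 in Col4a3-/-OPN-/- minus Col4a3-/- hearts (SE, a fold of 1.73, unadjusted p = 0.000767, limma adjusted p = 0.144) and -0.57 ± 0.17 in Col4a3-/- minus wild type hearts (a fold of 0.674, unadjusted p = 0.00697, limma adjusted p = 0.46). The 3 other members with a positive difference between the mutant groups were Snord73b at 0.11 ± 0.33, Snord17 at 0.04 ± 0.17 and Snord88c at 0.00 ± 0.18 (SE), all within their error, and the first 2 changed sign when single hearts were left out.

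**Figure D2:**
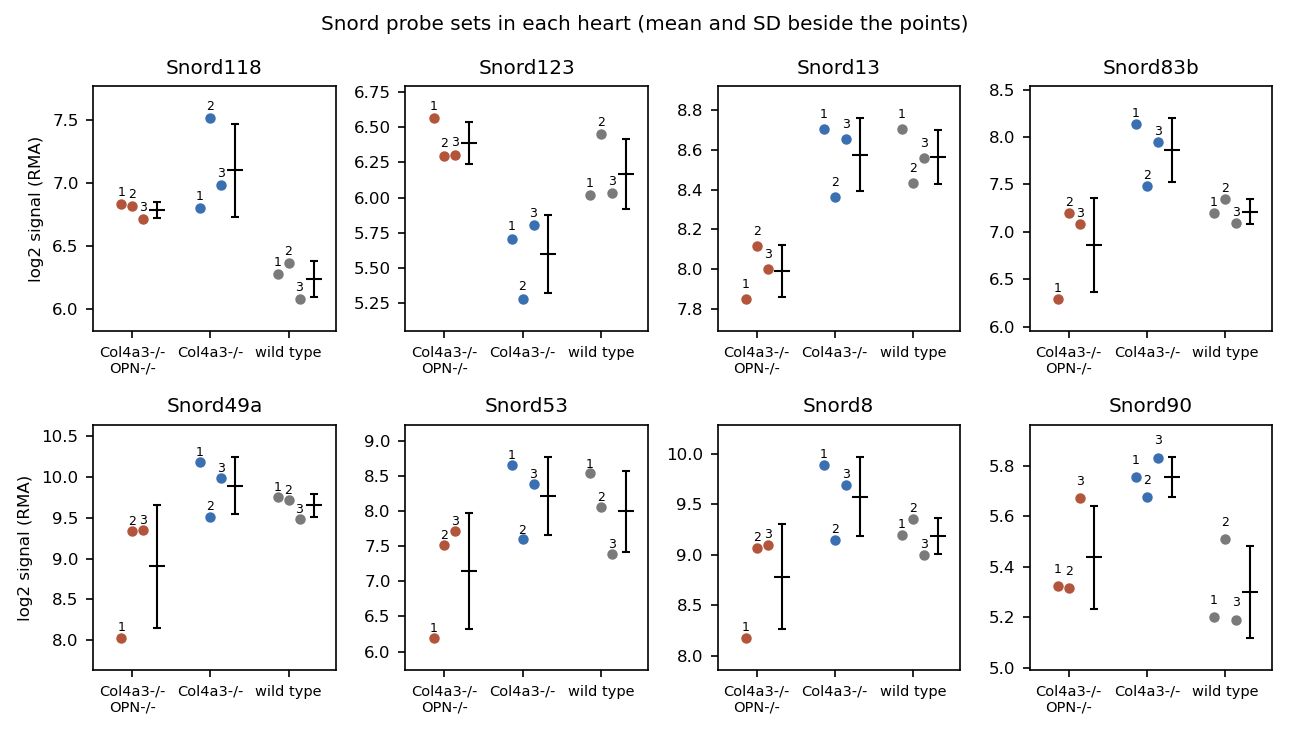
Log2 signal (y axis, RMA, scale not starting at 0) of 8 Snord probe sets in Col4a3-/-OPN-/-, Col4a3-/- and wild type hearts; points are hearts with their replicate number, and the bar beside each group is its mean with the SD of 3 hearts. Snord13 and Snord49a have the Col4a3-/-OPN-/- hearts below all others. Snord83b and, by a very narrow margin, Snord90 have the Col4a3-/- hearts above all others. Snord118 has both mutant groups above wild type, and Snord123 has the Col4a3-/- hearts lowest.

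Between Col4a3-/- and wild type hearts, more members were higher than lower in Col4a3-/- hearts, but the median difference was small. The difference was positive for 29 of the 43 members (67.4%), against 45% of all tested probe sets, and negative for 14 (32.6%), against 55%, with a median of 0.04 over the members and -0.02 over all. At an unadjusted p under 0.05, 3 members were higher, Snord118, Snord90 and Snord83b (6.98%), against 2.39% of all tested probe sets, and Snord123 was lower (2.33%), against 5.96%. The same 4 members were those whose groups did not overlap, against 4.58% and 7.9% of all tested probe sets in the higher and lower direction. The other members with the largest differences were Snord8 at 0.39 ± 0.26 to the higher side, and Snord73b at -0.35 ± 0.33 and Snord88c at -0.18 ± 0.18 to the lower side (SE). The direction of the median depended on the hearts and on the fit: it was 0.26 without Col4a3-/- replicate 2, -0.11 with array weights, and -0.22 once Y-linked signal entered as covariate. Among hearts with Y-linked signal, the single Col4a3-/- heart had a median difference of -0.33 against the 3 wild type hearts, and no wild type heart had Xist signal to compare with the other Col4a3-/- hearts.

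Between Col4a3-/-OPN-/- and wild type hearts, the lean was to lower signal in Col4a3-/-OPN-/- hearts. The difference was negative for 37 of the 43 members (86%), against 46.9% of all tested probe sets, and positive for 6 (14%), against 53.1%, with a median of -0.23 over the members and 0.01 over all. At an unadjusted p under 0.05, 4 members were lower, Snord13, Snord58b, Snord49a and Snord99 (9.3%), against 1.79% of all tested probe sets, and Snord118 was higher (2.33%), against 1.89%. The next most positive differences were 0.22 ± 0.17 for Snord123 and 0.14 ± 0.13 for Snord90 (SE), and Snord53 had -0.85 ± 0.42 (SE, unadjusted p = 0.0669). The groups did not overlap in 5 members to the lower side (11.6%), against 5.65% of all, where Snord82 joined the 4 named, and in Snord118 to the higher side (2.33%), against 7.55%. Snord82, a guide in an intron of Ncl, the nucleolin gene, was at 10.43, 11.14 and 11.33 in Col4a3-/-OPN-/- hearts, 11.61, 11.10 and 11.45 in Col4a3-/- hearts, and 11.34, 11.48 and 11.35 in wild type hearts. Its difference was -0.43 ± 0.21 against each of the other genotypes (SE, unadjusted p = 0.064 against Col4a3-/- hearts and 0.0636 against wild type hearts), and it rested mainly on Col4a3-/-OPN-/- replicate 1. Without that heart, the count of 4 lower members was 1, and the median over the members was -0.09.

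The comparisons share their hearts, so the 3 sets of differences are not separate evidence. Among the hearts with Y-linked signal, the median difference of the members was -0.29 in the 2 Col4a3-/-OPN-/- hearts against the 3 wild type hearts, with 37 of 43 negative against 46.7% of all tested probe sets. Between the same 2 hearts and the single Col4a3-/- heart with Y-linked signal it was -0.06, with 24 of 43 negative, against 43.1% of all. Between the single Col4a3-/-OPN-/- heart and the 2 Col4a3-/- hearts with Xist signal it was -0.34, with 40 of 43 negative, against 45.2% of all. Each of these 2 splits between the mutant groups holds 3 hearts, and neither was tested. The value of -0.06 rests on Col4a3-/- replicate 2 alone, the lowest heart of its genotype in 41 of the 43 members. Within the Col4a3-/-OPN-/- hearts, the median signal was 8.04 and 8.52 in those with Y-linked signal and 8.38 in the one with Xist signal. A dependence of the difference on sex was not tested. The low Col4a3-/- heart is also the one with the highest airway and fat markers and with more atrial signal than the other Col4a3-/- hearts, so sex and those markers cannot be told apart within that genotype.

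**Figure D3:**
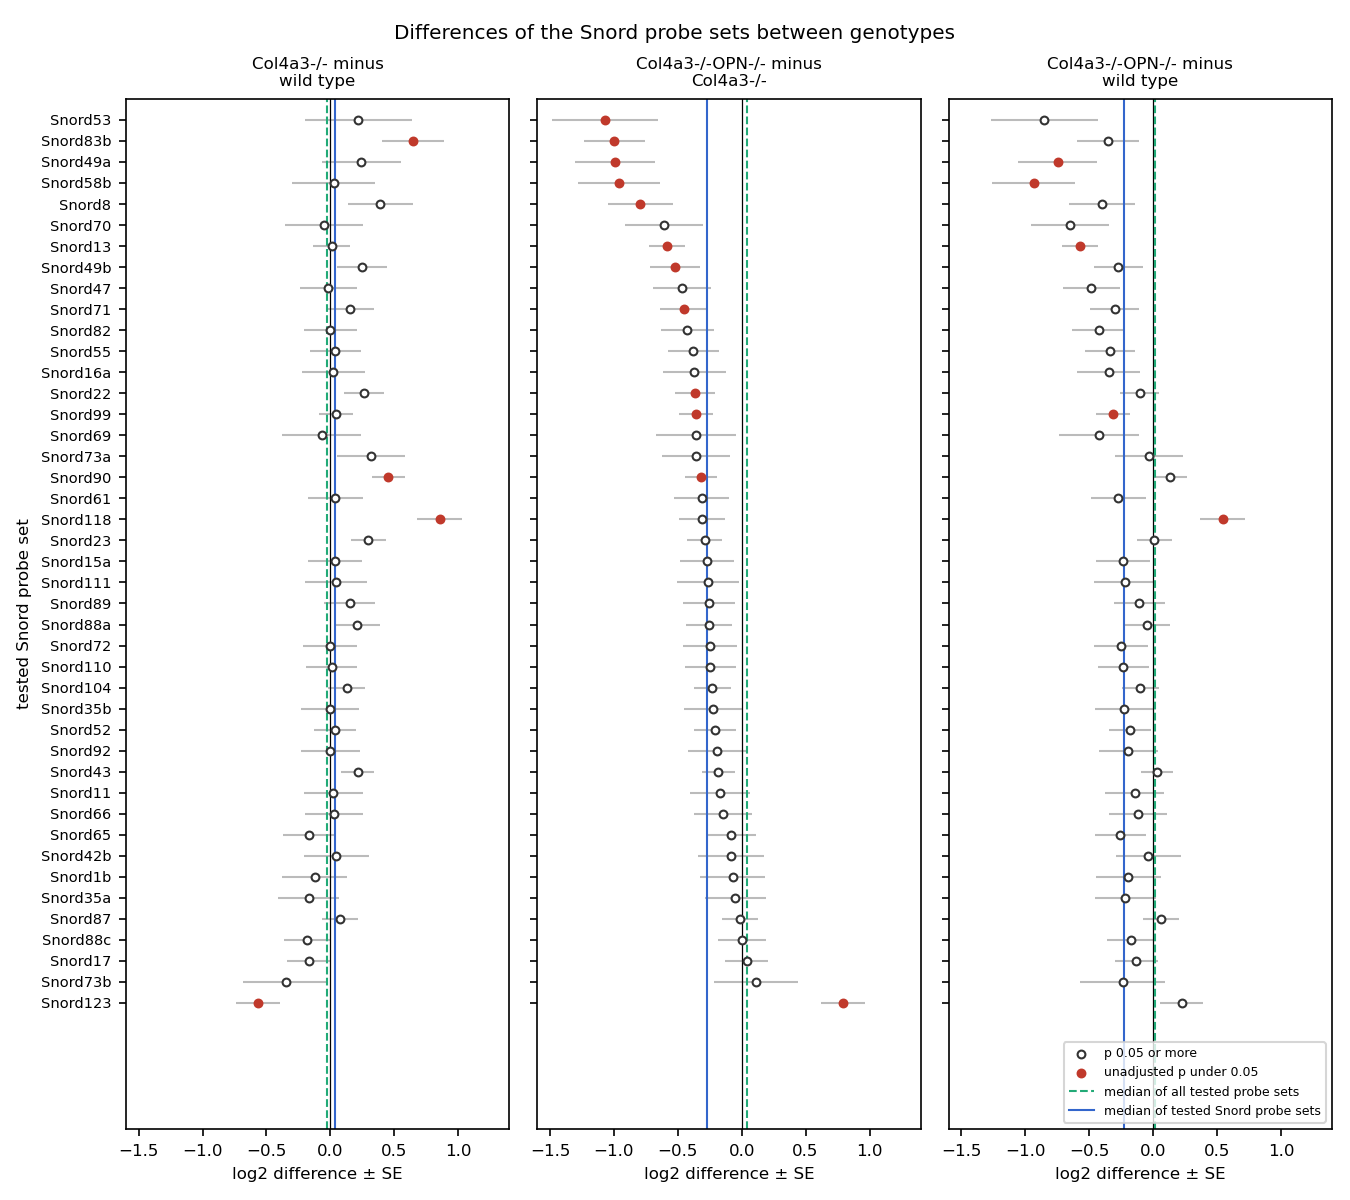
Log2 difference with its standard error (x axis, limma fit of all 9 hearts) of the 43 tested Snord probe sets in the 3 comparisons; filled points have an unadjusted p under 0.05, the solid line is the median of the members and the dashed line the median of all tested probe sets. The members' median lies at -0.27 in the middle panel and -0.23 in the right panel, and at 0.04 in the left panel, and no member passed the adjusted threshold.

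The lean between the mutant groups was described by class of host, by length and by signal, and the median was negative in each. The median difference in Col4a3-/-OPN-/- minus Col4a3-/- hearts was -0.26 over the 12 tested members in ribosomal protein genes, -0.21 over the 6 in Gas5 or Snhg genes, -0.29 over the 21 in other genes and -0.31 over the 3 outside any longer gene, and it was -0.15 for Snord66, the 1 tested member in a translation factor gene. The median was -0.34 over the 22 members of 48 to 68 nucleotides and -0.25 over the 21 longer ones. It was -0.36 over the 22 members with the highest mean signal, which included Snord104, Snord61 and Snord55 besides those described above, and -0.22 over the 21 with the lowest. The differences between these splits were not tested. Snord104 differed by -0.23 ± 0.14, Snord61 by -0.31 ± 0.21, Snord55 by -0.38 ± 0.20 and Snord35a, a guide in Rpl13a, by -0.05 ± 0.24 (SE). The 4 dim members had differences of -0.25 to -0.11.

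The host genes leaned the same way by sign between the mutant groups, but by less. Of the 41 genes whose span holds a member, 26 were tested through a probe set annotated with their symbol alone. Another 3 were dim and 12 had no probe set with a single symbol. Where a gene had several, the one with the highest mean was used, and whether it lies at the host gene was not checked. None of the 26 was called in any comparison, and their median difference was -0.03 in Col4a3-/-OPN-/- minus Col4a3-/- hearts, with 18 negative, a share of 69.2% against 42.3% of all tested probe sets, and 8 positive. It was 0.11 in Col4a3-/- minus wild type hearts and 0.05 in Col4a3-/-OPN-/- minus wild type hearts. The 28 pairs of a tested member and a tested host involved 21 hosts. Their median between the mutant groups was -0.28 for the members and -0.07 for the hosts, and 22 pairs had the same sign. Since most members and most hosts were negative, many same-sign pairs arise from that alone, and a link within pairs was not tested. Both pairs with Rpl3 use its probe set at -1.30, while another of that gene differed by 0.14 and a dim one by -0.06. In Col4a3-/-OPN-/- minus wild type hearts, the medians were -0.23 for the members and 0.03 for the hosts, and 12 pairs had the same sign.

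Snord123 and its host Snhg18 had like differences. Snhg18 was at 6.84, 6.51 and 6.68 in Col4a3-/-OPN-/- hearts, 6.02, 6.09 and 5.43 in Col4a3-/- hearts, and 6.44, 6.99 and 6.36 in wild type hearts, so the Col4a3-/- hearts were again the lowest 3. Its difference was 0.83 in Col4a3-/-OPN-/- minus Col4a3-/- hearts (limma adjusted p = 0.175) and -0.75 in Col4a3-/- minus wild type hearts (limma adjusted p = 0.45), against 0.79 and -0.57 for Snord123. Both probe sets may read parts of 1 transcript, since the Snord lies within the gene.

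For 2410006H16Rik, host of Snord49a, the host and the member were high in different hearts. The host was at 6.94, 6.67 and 7.28 in Col4a3-/-OPN-/- hearts, 6.76, 6.59 and 8.94 in Col4a3-/- hearts, and 6.69, 7.04 and 6.69 in wild type hearts, with Col4a3-/- replicate 3 alone standing above the others. That heart, the one with markers of endothelial activation, was also the highest for 5 of the 6 tested non-coding hosts, namely 1110038B12Rik, 2410006H16Rik, Snhg1, Snhg12 and Snhg6, and the lowest for the other, Snhg18. Over all tested probe sets, replicate 3 was the highest heart in 21.3% and the lowest in 26.1%. Col4a3-/- replicate 1, the highest heart for 26 members, was the highest for none of these 6 hosts, against 14.3% of all tested probe sets, which is little to go by on so few hosts. For Rpl3, host of Snord83b, the probe sets disagreed. One differed by -1.30 between the mutant groups, another by 0.14 and a dim one by -0.06, so no single host value stands for that gene. For Rps3a1, host of Snord73a and Snord73b, the probe set used differed by -0.98 and the other, a dim one, by -0.13.

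**Figure D4:**
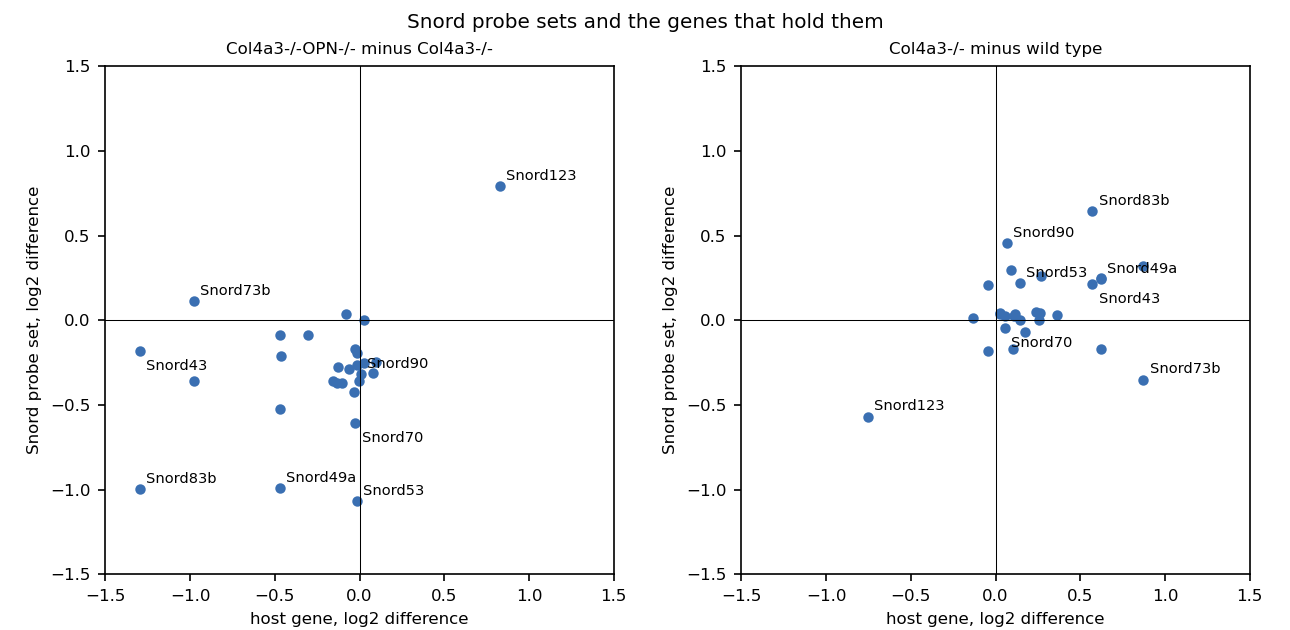
Log2 difference of 28 tested Snord probe sets (y axis) against that of the gene whose span holds them (x axis, the probe set with the highest mean where a gene has several), for Col4a3-/-OPN-/- minus Col4a3-/- (left) and Col4a3-/- minus wild type (right); points of 1 host share their x value. Snord123 lies far from 0 with its host in both panels, while Snord53 and Snord70 are at -1.07 and -0.61 on the left with hosts near 0.

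The genes of the particle's proteins showed no called difference. Of the 4 core proteins, Nop58 differed by -0.02 between Col4a3-/-OPN-/- and Col4a3-/- hearts and Snu13 by -0.22. The Snu13 value comes from the one of its 2 probe sets with the higher mean, and the other was not described. Fbl, the gene of the methyltransferase fibrillarin, had no probe set with a single symbol. Nop56 had 3 probe sets that differed by 0.10, -0.86 and -0.19 between these groups, so its level was not settled. None of the 7 tested assembly factors and none of the 10 maturation factors was called in any comparison, with median differences between the mutant groups of -0.02 and 0.08. Snord70 and Snord11, which lie in Nop58 itself, differed by -0.61 ± 0.31 and -0.17 ± 0.23 (SE).

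The H/ACA box and Cajal body RNAs, the other large class of guide RNAs of the nucleus, leaned the same way between the mutant groups but differed from the C/D box class against wild type. Over their 31 tested probe sets, named Snora or Scarna, the median difference was -0.33 in Col4a3-/-OPN-/- minus Col4a3-/- hearts, with 30 negative, 0.31 in Col4a3-/- minus wild type hearts, with 28 positive, and -0.03 in Col4a3-/-OPN-/- minus wild type hearts, with 19 negative. The members had -0.27, 0.04 and -0.23 in the same comparisons. Within the other class, the 26 Snora probe sets had -0.37, 0.37 and -0.02, and the 5 Scarna ones only -0.05, 0.11 and -0.05. At an unadjusted p under 0.05, 14 of the 31 were lower in Col4a3-/-OPN-/- than in Col4a3-/- hearts (45.2%), against 5.03% of all, and 11 were higher in Col4a3-/- than in wild type hearts (35.5%), against 2.39% of all, and none passed the adjusted threshold in any comparison. Against wild type, the larger median was that of the Col4a3-/-OPN-/- hearts in the C/D box class, which rested mainly on replicate 1, and that of the Col4a3-/- hearts in the other class, with no test between the classes. Col4a3-/-OPN-/- replicates 2 and 3 both lay below all wild type hearts in 5 of the 43 members (11.6%), against 10.3% of all tested probe sets.

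Per heart, the H/ACA and Cajal body class had medians of 7.96, 8.28 and 7.82 in Col4a3-/-OPN-/- hearts, 8.71, 8.27 and 8.61 in Col4a3-/- hearts, and 7.95, 7.76 and 8.14 in wild type hearts. Here Col4a3-/- replicate 2 lay above all wild type hearts, while in the C/D box class it lay below them. Ribosomal protein genes, with 92 tested probe sets, had median differences of -0.26 in Col4a3-/-OPN-/- minus Col4a3-/- hearts, 0.20 in Col4a3-/- minus wild type hearts and -0.04 in Col4a3-/-OPN-/- minus wild type hearts. For 107 microRNA precursors the same medians were -0.15, 0.10 and -0.07, so these classes also had their negative medians mainly between the mutant groups.

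**Figure D5:**
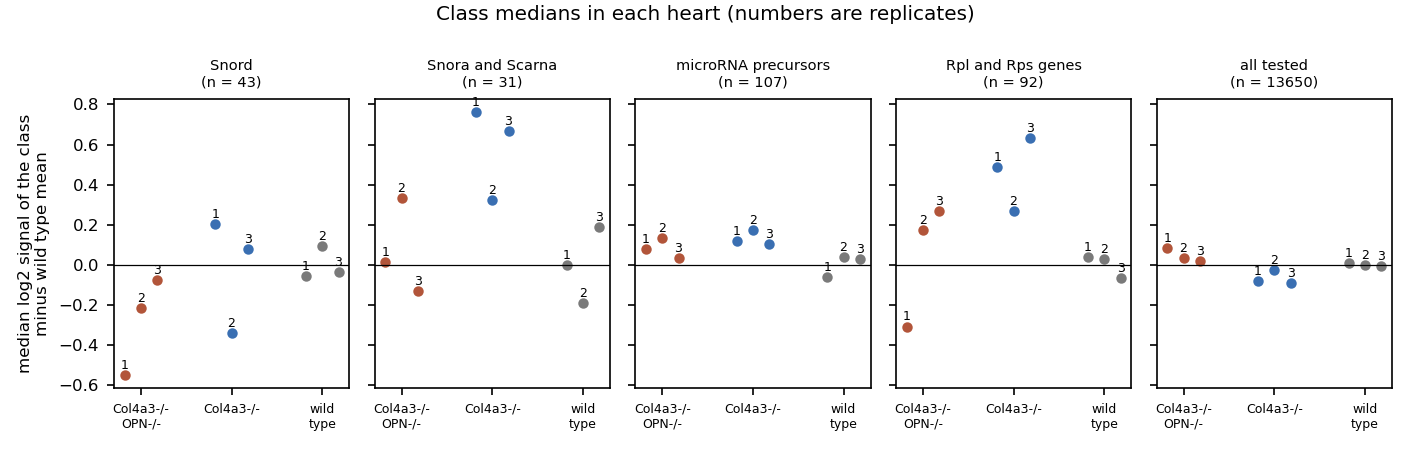
Median log2 signal of 5 classes of probe sets in each heart, minus the mean of the 3 wild type hearts (y axis); points are hearts with their replicate number, and n is the number of tested probe sets. Among the Snord probe sets, Col4a3-/-OPN-/- replicate 1 and Col4a3-/- replicate 2 lie lowest, at medians of 8.04 and 8.25 before the subtraction, while all 3 Col4a3-/- hearts lie above wild type in the Snora and Scarna class.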

How the data were processed

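Total RNA of 9 hearts was measured on 1 array each. The authors deposited log2 signals summarised by RMA, per the submitters' processing notes (version not given in the sources used here). How the RNA was labelled is uncertain, since the labels give a small RNA kit and the probes belong to an Affymetrix whole-transcript gene array.

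Symbols came from the platform annotation, which gave 23521 of the 33793 probe sets 1 symbol and 1814 several, and did not list 8458. The 33 probe sets with a Snord among several symbols, all 16 for Snord116 among them, are no members. Hosts came from the spans of the GRCm38.p6 table. The 13650 probe sets with 1 symbol and a mean above 5.21 were fitted in limma 3.58.1 (R 4.3.3; lmFit, eBayes with intensity trend, all 9 arrays, no covariate), with Benjamini-Hochberg adjustment over all of them at 0.05, and the code was tested on simulated data. With 3 hearts a group, exact permutation cannot give a p below 0.1 and was not used. The alternatives changed the filter, the normalization, the weights, the trend, the covariates and the hearts in the fit.

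The members, gene lists and tests were chosen with earlier results of these data known. Members were named where they had the 5 smallest p-values or the 3 largest differences to either side in a comparison, the 6 highest means, the 4 largest spreads, or lay next to the filter or led a family of a shared number. Snord11, Snord43, Snord47, Snord65, Snord66, Snord70, Snord71 and Snord92 were named after their values were seen. Same-numbered hearts did not deviate together: 2 of 9 pairs had an r above 0.1, with a range of -0.19 to 0.23.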

Additional observations from a re-analysis of the deposited data

How the results depend on the processing

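No Snord probe set was called in any of the 3 comparisons under any of 22 alternatives, 1 of which was chosen after seeing the data, or by the F test under the 21 that give one, and the smallest limma adjusted p reached was 0.105 in Col4a3-/- minus wild type hearts, 0.0906 in Col4a3-/-OPN-/- minus Col4a3-/- hearts and 0.263 in Col4a3-/-OPN-/- minus wild type hearts. The median Snord difference in Col4a3-/- minus wild type hearts was -0.22 with Y-linked signal as a covariate and -0.11 with array weights. It was 0.26 without both low hearts (Col4a3-/-OPN-/- replicate 1 and Col4a3-/- replicate 2), and -0.091 to 0.26 when single hearts were left out, with the highest value without Col4a3-/- replicate 2. The median in Col4a3-/-OPN-/- minus Col4a3-/- hearts was negative under every alternative, -0.45 to -0.14, and that in Col4a3-/-OPN-/- minus wild type hearts was too, -0.35 to -0.09. Of 23 named differences, 2 changed sign in Col4a3-/-OPN-/- minus Col4a3-/- hearts. Snord17 was at -0.00267 with quantile normalization renewed, at -0.037 without both low hearts and at -0.11 to 0.13 without single hearts, and Snord73b was at -0.20 to 0.38 without single hearts. The count of members lower at an unadjusted p under 0.05 in that comparison was 5 with array weights and 7 with the Y-linked covariate, against 11. In Col4a3-/-OPN-/- minus wild type hearts the count was 8 with array weights, 13 with the Y-linked covariate, 8 without Col4a3-/-OPN-/- replicate 3 and 2 when wild type replicate 2 was left out, against 4. In Col4a3-/- minus wild type hearts, 7 members were higher without Col4a3-/- replicate 2 and 10 without both low hearts, against 3. With a stricter filter Snord123 was not tested, so the counts it alone made up were 0. With the replicate number as a block, the medians were 0.04, -0.27 and -0.23 as without it, 10 members instead of 11 were lower between the mutant groups, and no call changed. The cause of these changes was not tested.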

Other observations

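Probe sets that list a Snord among several symbols were left out of the 47 because their signal cannot be assigned to 1 gene, and they gave the following values. The 16 probe sets for the Snord116 family, a repeated cluster on the imprinted part of chromosome 7 that lies within the longer non-coding gene Gm26504, had nearly the same values as each other, with means of 6.26 to 6.28. Per heart they ran between 5.58 and 7.65, with Col4a3-/- replicate 3 the highest, and their median differences were -0.82 in Col4a3-/-OPN-/- minus Col4a3-/- hearts, 0.69 in Col4a3-/- minus wild type hearts and -0.13 in Col4a3-/-OPN-/- minus wild type hearts. That pattern over the hearts is unlike that of the members, for which Col4a3-/- replicate 1 was the highest heart most often. The 15 other probe sets above the filter had medians of -0.20, 0.07 and -0.11 in the same comparisons, with 13 negative between the mutant groups. The probe set shared by Snord68 and Rpl13 was at 7.34, 8.49 and 8.74 in Col4a3-/-OPN-/- hearts, 9.46, 8.26 and 9.30 in Col4a3-/- hearts, and 8.73, 9.09 and 8.87 in wild type hearts, with the same low hearts as the members.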
